A study of Mus musculus with 4 samples.

Results

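The transcription factor SCL (gene symbol Tal1), of the basic helix-loop-helix family, is needed for mesoderm to give rise to blood. The data described here are the distal SCL peaks that carry a composite of CTG and GATA. A peak was a member if its summit lay more than 1 kb from every annotated transcription start site (TSS) and if the window from 50 bp before to 50 bp after the summit held CTG followed by GATA on the same strand after 7 to 9 bp, on either strand. Of the 12885 peaks of the list, 11793 were distal, and 3885 of these were members, which is 32.9% of the distal peaks (Wilson 95% interval 32.1 to 33.8%) and 30.2% of all peaks. The list is longer than the set of bound loci that the study counts, and the filter between them could not be worked out, so all counts and shares refer to the whole list.

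Binding was mapped by chromatin immunoprecipitation and sequencing (ChIP-seq) in FLK1+ mesoderm. The cells came from embryoid bodies of wild-type J1 mouse ES cells (strain given as C57Bl/6 X Sv129) at day 3.5 of differentiation and were isolated with beads through an antibody to FLK1, a receptor of endothelial and blood precursors. All 4 libraries share this line, day and isolation: 2 were immunoprecipitated with an SCL antiserum, 2 were input chromatin, and the pairs came from independent differentiations of 1 ES cell line. The peaks were called on the merged libraries, so no value has a replicate error. A peak list holds no expression values, so the identity of the cells could not be checked against marker genes.

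SCL binds DNA with an E protein as its partner, at E-boxes (CANNTG), and is held together with GATA factors by the bridging proteins LMO2 and LDB1. In red cell precursors this assembly is known for occupying a composite site in which the last bases of an E-box, CTG, lie about a turn of the helix before GATA. ETO2, the product of Cbfa2t3, is a co-repressor that is part of SCL complexes.

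The sequences of the strongest members show the arrangement that defines them. They are the windows of the members ranked 1, 2, 3 and 5 by fold enrichment, read 5′ to 3′ from mm9. The member of rank 4, near Gypc, is not shown. CTG and GATA are in capitals (or their complements, CAG and TATC, where a pair lies on the other strand). The peak nearest to Myo10 is read from the minus strand of chr15:25538667-25538767. The other windows are read from the plus strand, at chr7:116258635-116258735 near Ric3, chr16:93147878-93147978 near Runx1 and chr8:125243753-125243853 near Cbfa2t3.
Ric3: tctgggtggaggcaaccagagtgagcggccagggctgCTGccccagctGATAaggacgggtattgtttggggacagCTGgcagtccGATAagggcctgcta
Myo10: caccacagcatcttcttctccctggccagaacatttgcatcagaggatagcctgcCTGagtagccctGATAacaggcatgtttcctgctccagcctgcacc
Runx1: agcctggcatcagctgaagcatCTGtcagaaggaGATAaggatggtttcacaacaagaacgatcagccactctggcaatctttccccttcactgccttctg
Cbfa2t3: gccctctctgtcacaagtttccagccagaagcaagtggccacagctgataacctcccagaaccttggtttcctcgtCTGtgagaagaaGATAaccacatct

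The spacing within each member was that of the pair nearest to the summit. Typical members are shown by 1 of each spacing with a single pair and a fold closest to the median of all members (13.3), with 12 bases on each side of the composite. They lie at chr3:34935690-34935727 (plus strand, near Sox2ot, 7 bp), chr5:24384238-24384276 (plus strand, near Gm15552, 8 bp) and chr4:133662171-133662210 (minus strand, near Ubxn11, 9 bp).
Sox2ot: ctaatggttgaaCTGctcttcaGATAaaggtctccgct
Gm15552: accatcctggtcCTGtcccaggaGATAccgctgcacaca
Ubxn11: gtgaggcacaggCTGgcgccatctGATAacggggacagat

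Members were more enriched for SCL than distal peaks of every other motif class. Fold enrichment is the ratio of ChIP fragments at the summit to the local input background after 1 is added to each, which lowers the fold below the plain ratio. In 678 members this background was the lowest value of the list, 2.43 fragments, so among them the fold follows the ChIP count alone. The median fold of the members was 13.3 (95% interval 12.9 to 13.7), the middle of the distribution lay between 8.68 and 25.9 (quartiles), and single values ran from 3.98 to 392.6. The 7908 distal peaks without the composite had a median of 10.5, and the difference was 2.78 (95% interval 2.34 to 3.22). In bulk chromatin, more cells with a bound site and stronger binding in each cell cannot be told apart. Peaks of 1 list are not replicates, so this interval and those below describe sampling over the peaks and hold no variation between differentiations.

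The distal peaks without the composite were divided by the motifs in the same window, a GATA motif (GATA with A or T before it and A or G after it) and an E-box (CANNTG), on both strands. The 2779 peaks with both motifs, but not in the composite arrangement, were the nearest class, with a median fold of 11.4, and members exceeded them by 1.87 (95% interval 1.32 to 2.42). The 2506 peaks with a GATA motif only had a median of 10.8, which members exceeded by 2.49 (1.97 to 3.02). The 1508 peaks with an E-box only had a median of 9.46, and the 1115 with neither motif had 9.01. These were lower than the members by 3.80 (3.26 to 4.35) and 4.26 (3.75 to 4.77). The order of the classes was thus the composite, both motifs, GATA alone, E-box alone and neither, and the quartile ranges of all classes overlapped.

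**Figure D1:**
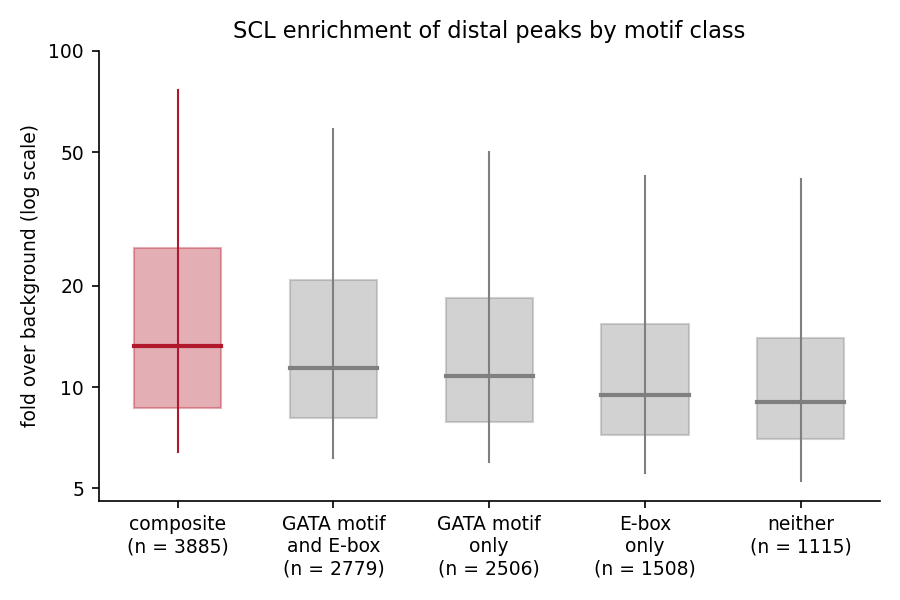
Fold enrichment over background (log scale) of distal peaks by the motifs from 50 bp before to 50 bp after the summit. Boxes span the quartiles with the median as a line, and whiskers run from the 5th to the 95th percentile of peaks. The median is highest for the composite (13.3) and lowest for peaks with neither motif (9.01), while the boxes overlap.

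Members differed from the other distal peaks in the ChIP signal, while no difference in background was detectable. They had a median of 60 ChIP fragments at the summit, and the others had 50, a difference of 10 (95% interval 7.49 to 12.5). The local background differed by -0.073 fragments (95% interval -0.18 to 0.035). The median widths of 399 and 393 bp differed by 6 bp, with a 95% interval of -1.94 to 13.9. The count of a single peak at the median of 60 fragments has a Poisson 95% interval of 45.8 to 77.2.

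The composite was found more often as peaks became stronger. In deciles of all distal peaks by fold, the share with the composite was 20% in the lowest and 48.3% in the highest, while windows 1 kb away from the same summits held it in 2.46 to 3.81%. By the number of fragments at the summit the share was 29.5% in the lowest decile and 47.0% in the highest, and it changed little over the lower 7 deciles (27.7 to 32.1%). In a wider window of 125 bp on each side the shares by fold were 28.2% and 61.8%. Over all distal peaks, the windows 1 kb away held the composite in 3.10% (732 of 23586).

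**Figure D2:**
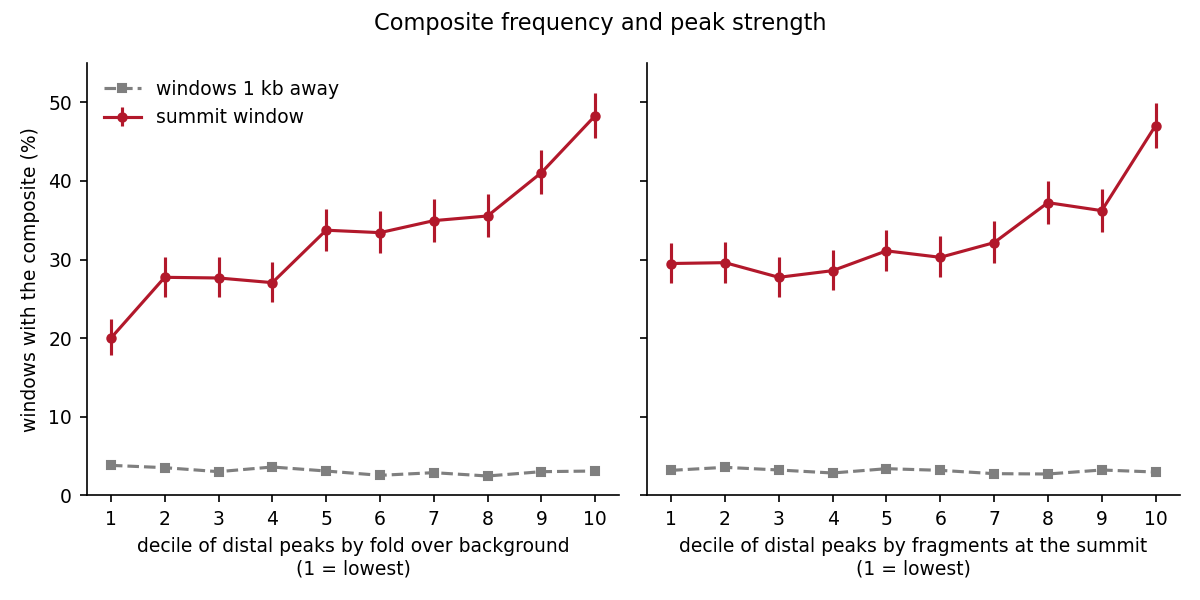
Share of windows with the composite in deciles of distal peaks, ranked by fold over background (left) or by fragments at the summit (right). Points are the summit windows with Wilson 95% intervals, and squares are windows 1 kb to each side of the same summits. The share by fold runs from 20% to 48.3%, and the windows away from summits stay under 4%.

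Of the distal peaks, 7.25% had a fold of at least 50. Among members the share was 11.4% (444 peaks), and among other distal peaks 5.20%, a difference of 6.23 percentage points (95% interval 5.14 to 7.37). Members made up 51.9% of the distal peaks at this level, and 105 of 189 at a fold of at least 100. At a fold of at least 200 they were 7 of 16, a share of 43.8% whose interval of 23.1 to 66.8% includes 32.9%. They were 5 of the 10 and 55 of the 100 strongest distal peaks.

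Among the members of highest fold were sites near known genes of blood and vessels and sites near other genes. The first lay 31.8 kb from Ric3, a chaperone of acetylcholine receptors, and had the highest fold of all distal peaks. Its fold was 392.6 (Poisson 95% interval 373.8 to 412.2, from 1626 fragments). The next, near Myo10, an unconventional myosin of filopodia, had a fold of 338.4 (323.1 to 354.3). The third was intergenic, 321.6 kb from the nearest TSS, that of Runx1, the transcription factor needed for blood stem cells to emerge, and had a fold of 298.0 (283.3 to 313.2). An intron of Gypc, which encodes the red cell membrane protein glycophorin C, held the fourth, 7.17 kb from the TSS, with a fold of 265.8. Cbfa2t3 was nearest to the fifth and the ninth, with folds of 236.6 and 195.6. The Poisson intervals of the first 5 members did not overlap, and those of neighbours in the order overlapped from the fifth on. These intervals hold the error of the ChIP count only and take the background as fixed, so they do not settle the order of the folds.

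The remaining members of the strongest 15 had folds of 181.3 to 224.6. The sixth was nearest to Ets1, an Ets family transcription factor expressed in vessels and blood. The seventh was nearest to Ncam1, with a fold of 216.6. Others were nearest to 1110036E04Rik, Grin3a (a glutamate receptor subunit), Itgb6 (an integrin chain) and Slc44a5. Others still were nearest to Zc3hav1 (an antiviral zinc finger protein), Ptprt (a receptor tyrosine phosphatase) and Gcom1. Of these 15, 8 had the 8 bp spacing and 7 the 9 bp spacing. They lay in introns in 6 cases and between genes in 9. The composites of the sixth member (Ets1) and the ninth (Cbfa2t3) are shown because their spacers differ while CTG and GATA do not, at chr9:32414997-32415035 (minus) and chr8:125190368-125190407 (minus).
Ets1: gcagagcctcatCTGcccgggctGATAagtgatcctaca
Cbfa2t3: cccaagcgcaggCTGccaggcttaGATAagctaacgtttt

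Of the spacings that the rule admits, 8 and 9 bp stood above their neighbours and 7 bp did not. The nearest pair was at 9 bp in 2093 members (53.9%, 95% interval 52.3 to 55.4%), at 8 bp in 1413 (36.4%, 34.9 to 37.9%) and at 7 bp in 379 (9.76%, 8.86 to 10.7%). In composites 1 kb away from summits these shares were 33.7%, 32.8% and 33.5%. Counted over all distal peaks, CTG and GATA at 9 bp occurred in 18.3% and at 8 bp in 12.5%. The 7 bp spacing occurred in 3.59%, within the range of 3.27 to 5.21% for the 16 spacings of 1 to 6 and 11 to 20 bp, which the rule leaves out. The spacing of 10 bp, just outside the rule, occurred in 6.60%. Away from the summits all spacings of 0 to 20 bp lay between 0.76 and 1.44%.

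Fold followed the same division. The median fold was 13.5 (95% interval 12.9 to 14.0) at 9 bp, 13.3 (12.8 to 13.9) at 8 bp and 11.6 (10.4 to 12.7) at 7 bp. The 9 and 8 bp members differed by 0.19 (95% interval -0.55 to 0.94), so no difference between them was detectable. Both exceeded the 7 bp members, by 1.91 (0.73 to 3.10) and 1.72 (0.54 to 2.90). Just outside the rule, 358 distal peaks with a 6 bp pair and no composite had a median fold of 12, and 634 with a 10 bp pair had 11.4. Among the 16 spacings of 1 to 6 and 11 to 20 bp the median was 10.3 to 13.2, with the highest at 2 bp, and at 0 bp it was 9.96.

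**Figure D3:**
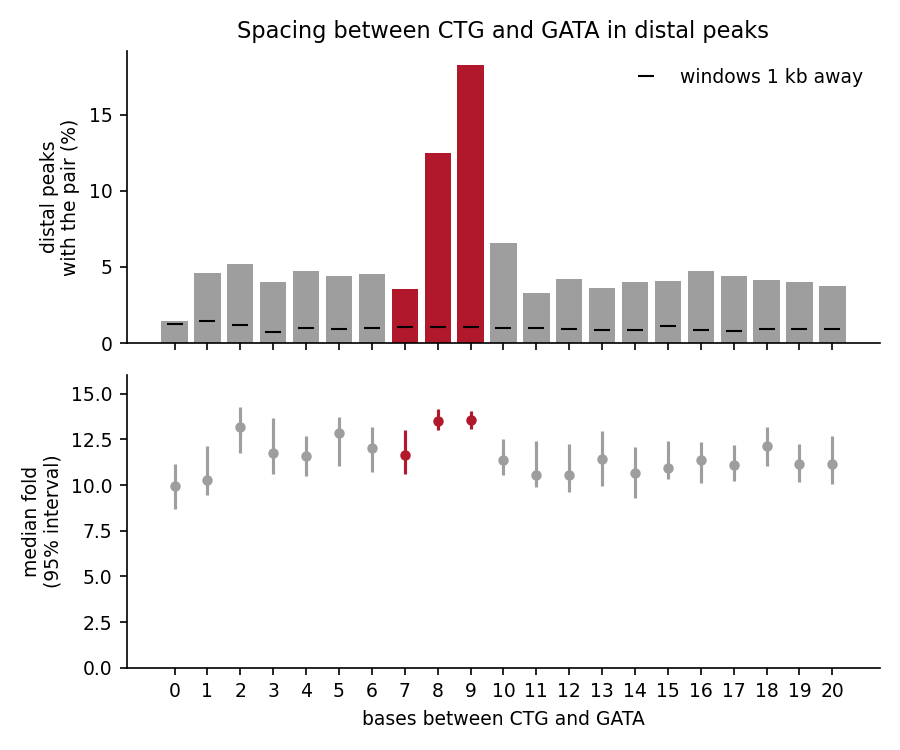
Share of distal peaks with CTG followed by GATA at each spacing (upper) and the median fold of those peaks with its 95% interval (lower), for spacings of 0 to 20 bp. Red marks the spacings in the rule, for the others the fold excludes members, and short black lines are windows 1 kb away. The 8 and 9 bp spacings stand out at 12.5 and 18.3%, and 7 bp, at 3.59%, does not.

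A single pair was present in 3639 members, 2 pairs in 236 and 3 pairs in 10. The 216 members with pairs that did not all overlap had a median fold of 16.7, against 13.1 for those with a single pair, a difference of 3.60 (95% interval 1.06 to 6.15). The 30 members whose pairs all overlapped had a median of 10.8 (8.25 to 15.0). The strongest member with 3 pairs, near Gm16988 with a fold of 94.1, is shown as the window chr10:37458931-37459031 (plus strand). Its pairs have spacings of 9, 8 and 7 bp, the last of them on the minus strand and sharing bases with the first.
Gm16988: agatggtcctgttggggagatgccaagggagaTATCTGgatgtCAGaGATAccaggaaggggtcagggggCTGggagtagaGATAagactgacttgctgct

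Within the window that the rule sets, composites lay nearer to the summit than composites 1 kb away lay to the centre of their window, and to one side of it. The centre of the composite was a median of 15.5 bp (95% interval 15.5 to 16.5) from the summit, and 62.8% of the centres were within 20 bp. In windows 1 kb away the median was 23 bp (20.5 to 24.5). Read along the composite, its centre was a median of 6.5 bp (6 to 7.5) beyond the summit, so that the summit fell on the CTG side in 61.1% of members (59.5 to 62.6%), leaving out 19 with the centre at the summit. The share was 61.5% for composites on the plus strand, 60.6% on the minus strand and 62.2% in members with a fold of at least 50. CTG lay a median of 14 bp from the summit and GATA 17.5 bp. Composites in windows 1 kb away had the window's centre on the CTG side in 46.0% (42.4 to 49.6%). An offset of this kind was not particular to members: in distal peaks with a GATA motif only, the summit was 5′ of the nearest GATA motif in 60.1% (58.1 to 62%), with a median offset of 6.5 bp. Measured from the GATA of the composite, members had 69.8% (68.3 to 71.2%) and a median offset of 12.5 bp (11.5 to 13.5). The rule requires the whole composite, with GATA at its 3′ end, to fit in the window, which by itself moves GATA to that side. The values of members and of peaks with a GATA motif only are therefore not on a par, and the part of the rule was not tested.

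**Figure D4:**
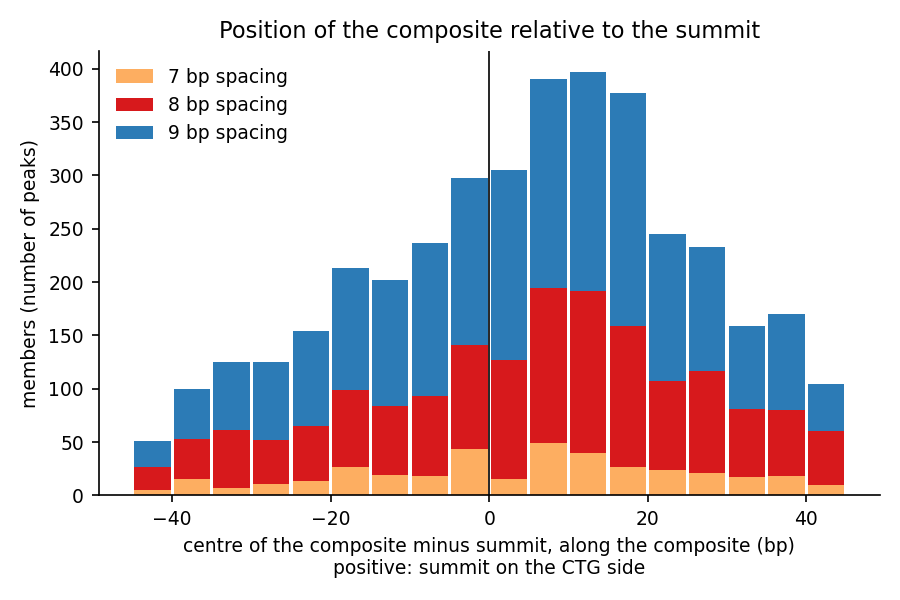
Number of members by the position of the composite's centre relative to the summit (bp, along the composite), stacked by spacing in bins of 5 bp. The counts peak to the right of 0, where the summit lies on the CTG side, which holds 61.1% of members (19 at 0 left out), and all 3 spacings share this offset.

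The bases around the core, which the rule did not use, differed from those of composites away from summits. GATA had A or T before it and A or G after it, the form that GATA factors prefer, in 79.7% of members (95% interval 78.4 to 81.0%) and in 40.3% of composites 1 kb away. AGATAA alone accounted for 41.9% and 12.8%, and AGATAAG for 22.9% and 6.28%. TGATAG was the exception, at 5.77% in members and 8.61% away. The base before GATA was A in 62.3% and T in 29.1% of members, and the base after it was A in 66.3%. Before CTG, A was found in 10.2% of members and in 23.5% away from summits.

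Fold varied with some of these bases. Members with the extended GATA motif had a median fold of 13.7, and those without it 11.4, a difference of 2.33 (95% interval 1.52 to 3.14). With AGATAAG the median was 15.0, above the 12.8 of members without it by 2.24 (0.96 to 3.51). The 397 members with A before CTG had a median of 11.4, and their difference from the rest was -2.12 (-3.27 to -0.97). These comparisons are among 14 features of the core for which the difference was computed, and their intervals are not adjusted for that number.

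In 14.2% of members CTG was the end of a full E-box, CANCTG, compared with 8.20% in composites away from summits. The E-box CAGCTG made up 7.41% and CATCTG 5.02% of members, against 3.14% and 2.19% away. For CACCTG, at 1.0% and 1.23%, no difference was detectable (-0.23 points, 95% interval -1.35 to 0.46), and CAACTG was less frequent in members, at 0.80% and 1.64% (-0.84 points, -2.07 to -0.067). Members with a full E-box in the composite had a median fold of 14.0 and the others 13.1, a difference of 0.89 whose interval of -0.42 to 2.20 includes 0. Outside the composite, 1232 members (31.7%) held a further GATA motif, and these had a median fold 1.65 higher than the rest (0.39 to 2.90). An E-box outside the composite was present in 40.3% and went with a difference of -0.20 (-1.0 to 0.59).

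The motif AGGAA, which Ets factors bind, was less frequent in members than in other distal peaks but more frequent than away from summits. It was found on either strand in 47.3% of members (95% interval 45.8 to 48.9%), 55.1% of the other distal peaks and 56.9% of those with a GATA motif only. The differences were -7.76 percentage points (-9.67 to -5.84) and -9.57 points (-12.1 to -7.06). Windows 1 kb from member summits had 32.9%. In members the composite itself takes up part of the window, and with its bases masked the share was 43.6%. From 51 to 150 bp on each side of the summit, where the composite takes up no bases, the shares were 66.3% in members and 69.1% in other distal peaks, a difference of -2.86 points (-4.67 to -1.07). Members with AGGAA had a median fold 0.39 higher than members without it (-0.36 to 1.14), so no difference in enrichment was detectable. In the same flanking bases members also held fewer GATA motifs (41.6 and 48.6%, difference -7.04 points, -8.93 to -5.13).

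Motifs of 7 other factor families were each less frequent in members than in other distal peaks, with differences of -2.03 to -0.17 percentage points, and the interval excluded 0 for those of Tead, AP-1 and Sox factors. Here too the composite takes up part of the member window. These families were not compared in the flanking bases, and the part of the composite in the differences was not tested. TGTGGT, a motif of Runx factors, was found in 9.47% of members, 10% of other distal peaks and 8.30% of windows 1 kb away. CCACCC (Klf factors) had 8.37, 9.33 and 7.98%, and TGACAG (Meis factors) 11.1, 11.5 and 7.46%. GGAATG (Tead factors) had 6.28% in members and 8.31% in other distal peaks, a difference of -2.03 points (95% interval -2.98 to -1.03). TGANTCA (AP-1) had 4.2 and 5.65% (-1.46 points, -2.25 to -0.62), and the members with it had a lower median fold, 11.5 against 13.4. TAATTA (homeobox factors) and ACAAT (Sox factors) were in 0.90% and 13.6% of members and more often in windows 1 kb away, in 2.73% and 17%. All motifs were searched on both strands.

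The median distance to the nearest TSS was 23.2 kb (quartiles 8.21 and 67.7 kb), against 25 kb in other distal peaks, a difference of -1797 bp whose interval of -3480 to -114 bp approaches 0. The interval included 0 under 5 of 11 alternatives, and the difference was -286 bp (-2140 to 1568) in a window of 100 bp on either side and -239 bp (-2472 to 1995) for peaks more than 5 kb from a TSS. Against peaks with both motifs members were nearer, with a difference of -3127 bp (-5503 to -751), and against peaks with a GATA motif only the difference was -286 bp (-2567 to 1996). Introns held 1779 members (45.8%), intergenic sequence 2001 (51.5%) and exons 105 (2.70%). The share in introns exceeded that of other distal peaks by 1.90 points (-0.009 to 3.81) and the share in exons by 0.62 points (0.041 to 1.25). Within 1 kb of a TSS, 349 of 1092 peaks (32%) held the composite, and the share in distal peaks was 0.98 points higher (-1.96 to 3.81), so no difference was detectable. The members nearest to the limit of 1 kb included the peak at Slc40a1, the iron exporter ferroportin, at 1004 bp with a fold of 9.21. Just outside was the peak at Zfp516, at 996 bp with a fold of 40.9. At the edge of the window, 247 members with the composite in the outermost 5 bp had a median fold of 11.7, and 393 distal peaks with a composite within 12 bp beyond it had 12.3.

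Each member was assigned to the gene with the nearest TSS, which does not establish that it acts on that gene. Members were nearest to 2986 of the 26061 annotated genes, 11.5%, and to 47.1% of the 6340 genes that had any distal peak. Most of these genes had a single member (2355), 631 had 2 or more and 20 had 5 or more. Among the genes with the most, Gm11016 had 7 members, and Efnb2 (the arterial ligand ephrin B2), Rybp, Gm16767 and Frmd4a had 6 each. Among the genes with 5 were Ets1, Gse1, Cited2 (a partner of the co-activators CBP and p300) and Pcgf5. Gse1 had its 5 among 18 distal peaks and Cited2 among 7.

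Lists of 25 genes for blood, vessel and other mesoderm programmes were then examined. They were set with earlier results on these data known, so the counts are descriptions. Read against the 11.5% of all genes, each list held more genes with a member, from 24% for paraxial mesoderm to 48% for endothelial genes. Among the genes of a list with a distal peak, the share with a member was 81.8% for co-repressors and Polycomb subunits (9 of 11), 63.6% for red cell genes, 63.2% for endothelial genes, 56.2% for receptors, 53.3% for cardiac mesoderm, 50% for blood transcription factors and 42.9% for paraxial mesoderm, beside 47.1% for all genes. These shares rest on 11 to 19 genes each. The share of the distal peaks at the genes of a list that were members ran from 27.1% to 39.1%, around the 32.9% of all distal peaks, and the interval of every list included that value, so per distal peak no difference from it was detectable. The median fold of the members of a list was 28.8 for red cell genes, 21.1 for blood transcription factors, 16.9 for paraxial mesoderm, 15 for co-repressors and Polycomb subunits, 14.6 for endothelial genes, 11.6 for cardiac mesoderm and 9.17 for receptors, beside 13.3 for all members. These medians are over 9 to 27 members.

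**Figure D5:**
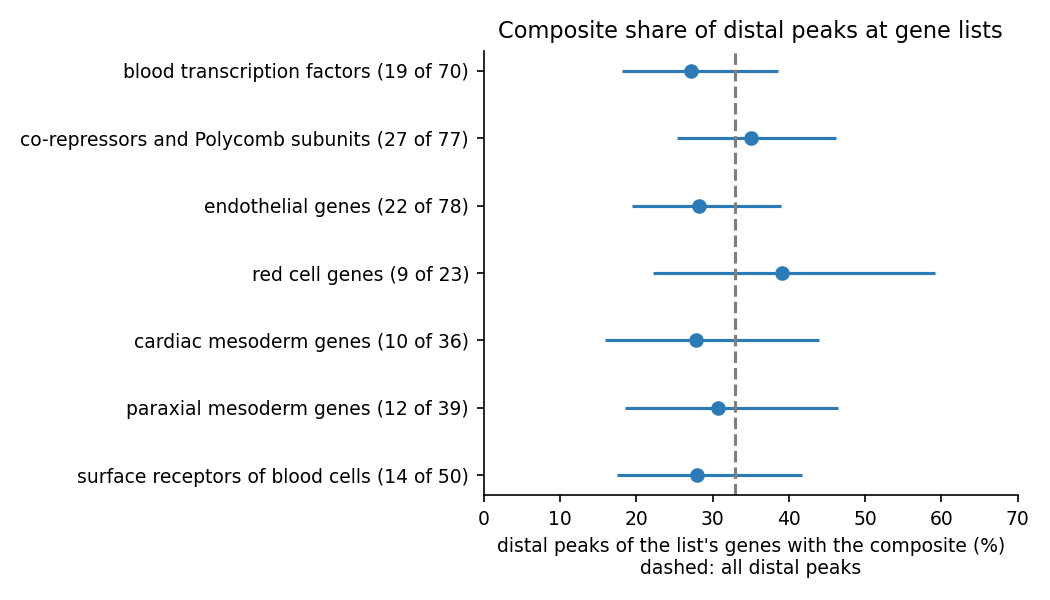
Share of the distal peaks nearest to the genes of each list that were members, with Wilson 95% intervals and, in brackets, members of distal peaks. The dashed line is the 32.9% of all distal peaks, and the interval of each of the 7 lists includes it.

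Of 25 blood transcription factors, 18 had a distal peak and 9 had a member. Runx1 had 4 members among 16 distal peaks, with folds of 298.0, 92.8, 21.2 and 19.4. The strongest pair lay 303.6 and 321.6 kb from the TSS and the weaker pair within 31 kb. Gata2, which maintains blood precursors, had 3 members within 4.56 kb of its TSSs, with folds of 41.8, 38 and 36.8 whose intervals overlap. Gata1, the red cell GATA factor, had 2 (41.4 and 15.1), and Tal1 itself had 2, with folds of 21.1 and 14.2, both intergenic and 8.08 and 6.52 kb from its TSS. Fli1, an Ets factor of blood and vessels, had 3 members of similar fold, 14.2 to 16.2. Ikzf2 had 2, the stronger with 65.5, and Etv6, Ikzf1 and Myb had a single member each, of 12.9, 10.7 and 6.86. Erg had 5 distal peaks and Lyl1, the closest relative of Tal1, had 1, all without the composite, and no peak was nearest to Lmo2. The composites of the strongest members at these genes are shown for Gata1 (chrX:7570654-7570693, minus), Gata2 (chr6:88141840-88141879, plus), Tal1 (chr4:114720949-114720988, plus) and Fli1 (chr9:32363030-32363069, plus), all with the 9 bp spacing.
Gata1: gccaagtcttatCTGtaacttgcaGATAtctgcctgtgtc
Gata2: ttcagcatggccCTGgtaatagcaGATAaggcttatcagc
Tal1: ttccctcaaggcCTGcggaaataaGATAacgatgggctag
Fli1: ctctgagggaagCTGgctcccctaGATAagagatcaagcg

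Of 25 co-repressors and Polycomb subunits, 11 had a distal peak and 9 of these had a member. Cbfa2t3 had 4 members with folds of 236.6, 195.6, 54.6 and 9.47, which do not overlap in their intervals, so its strongest member exceeded its weakest by far more than the counting error of the ChIP fragments. Gse1, which is found with co-repressor complexes, had 5, of 173.4, 106.6, 15.0, 6.48 and 5.89. Zfpm1, the GATA1 cofactor FOG1, had 2 members 2.71 and 4.98 kb from its TSS, with folds of 76.5 and 87.6. Rybp, a subunit of a variant Polycomb repressive complex 1, had 6 intergenic members 35.2 to 153.9 kb away, with folds of 6.97 to 51.2. Pcgf5, a subunit of such complexes too, had 5, of 7.72 to 69.9. Rcor1, Kdm2b and Zfpm2 had strongest members of 18.9, 11.9 and 8.74. Members at Cbfa2t3, Gse1 and Zfpm1, and those at Foxc2, lie in the long gene model Gm20388 on chromosome 8, and 20 members were intronic through that model alone. The composites of the strongest members are at chr8:125243817-125243856 (Cbfa2t3, plus), chr8:122895868-122895906 (Gse1, minus), chr8:124811001-124811040 (Zfpm1, minus), chr6:100281697-100281735 (Rybp, minus) and chr19:36348120-36348158 (Pcgf5, plus).
Cbfa2t3: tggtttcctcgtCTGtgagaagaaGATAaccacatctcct
Gse1: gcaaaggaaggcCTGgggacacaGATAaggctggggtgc
Zfpm1: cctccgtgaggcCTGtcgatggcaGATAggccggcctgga
Rybp: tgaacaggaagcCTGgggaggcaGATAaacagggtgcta
Pcgf5: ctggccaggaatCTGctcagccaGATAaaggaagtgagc

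Of 25 endothelial genes, 19 had a distal peak and 12 a member. The strongest was in an intron of Flt1, a VEGF receptor, with a fold of 137.3 (Poisson 95% interval 126.9 to 148.4). Kdr, which encodes FLK1, had 3 intergenic members, 77.9, 26.5 and 30.3 kb from its TSS, with folds of 73.0, 28.7 and 13.3. Efnb2 had 6 members with folds of 7.05 to 66.5. Sox18 (39.9), Flt4 (26.6), Eng (16.1), Sox17 (15.5), Sox7 (13.7), Mef2c (11.6), Nrp2 (11) and Cldn5 (7.96) were represented by lower values, and Tek, the angiopoietin receptor, had 3 members of 10.1 to 24.1. Cdh5, which encodes VE-cadherin, had 9 distal peaks and no member. Composites are shown from chr5:148469638-148469677 (Flt1, plus), chr5:76296529-76296567 (Kdr, minus) and chr8:8516601-8516639 (Efnb2, minus).
Flt1: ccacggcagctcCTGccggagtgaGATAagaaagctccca
Kdr: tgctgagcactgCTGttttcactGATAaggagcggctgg
Efnb2: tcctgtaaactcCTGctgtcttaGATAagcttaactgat

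Of 24 red cell genes found in the annotation, 11 had a distal peak and 7 a member. These were genes of the membrane and its skeleton and of haem synthesis. Gypc had the strongest (265.8). Epb4.1 (protein 4.1) had a member of 94.1, Sptb, a spectrin chain (annotated as Spnb1), had members of up to 40.6, and Epb4.9 (dematin) had 17.4. Fech and Alas2, enzymes of haem synthesis, had members of 27.2 and 15.1. No member was nearest to any of the globin genes in the list. The composite at Gypc had the 9 bp spacing, 9.5 bp from the summit.

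Of 25 surface receptors of blood cells, 16 had a distal peak and 9 a member. Kit, the stem cell factor receptor, had 3 intergenic members 45.7 to 141.8 kb from its TSS, with folds of 34.5, 18.6 and 8.71, and Tgfbr3 had 3, of up to 26.8. Ccr7 (28.6), Itgb3 (25.1), Aplnr (14.4), Gp9 (9.63), Cd34 (7.93), Cd44 (7.86) and Bmpr2 (7.37) made up the rest, each given by its strongest member. The composite at Kit is at chr5:75856719-75856757 (minus).
Kit: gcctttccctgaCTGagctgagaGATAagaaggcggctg

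Genes of other mesoderm fates also had members. Of 25 cardiac mesoderm genes, 15 had a distal peak and 8 a member. Gata5 had the highest fold (45.1), then Gata4 (27.7), Bmp10 (21.8), Wnt11 (11.9), Tbx5 and Mef2c (both 11.6), Pdgfra (8.78) and Wnt2 (5.62). Mesp1 had 1 distal peak without the composite, and no peak was nearest to Gata6. Of 25 paraxial mesoderm genes, 14 had a distal peak and 6 a member. Foxc1 had 2, of 36.4 and 14.6, both in introns of its neighbour Gmds. Foxc2 had 3, of 26.2, 14.5 and 4.89, and Wnt5a had 3 in introns of Erc2, of 17.4, 17.2 and 9.40. Pax7 (32.2), Tcf15 (24.2) and Eya1 (16.6) had the others, and no peak was nearest to Tbx6. The study counts both Gata6 and Tbx6 among the genes bound by SCL, and gave a peak to Tbx6 as the closest gene that differed in expression. Peaks were assigned here by the nearest TSS, so the absence of a nearest peak does not mean that SCL was absent from these loci. Composites are shown from chr14:63850146-63850184 (Gata4, minus) and chr13:32120934-32120972 (Foxc1, minus).
Gata4: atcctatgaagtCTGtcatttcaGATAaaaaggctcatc
Foxc1: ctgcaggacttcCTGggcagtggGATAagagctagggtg

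The study asked how binding relates to genes that SCL activates or represses. Of the distal peaks nearest to activated genes, 435 of 1280 were members (34.0%, 95% interval 31.4 to 36.6%), and of those nearest to repressed genes 131 of 443 (29.6%, 25.5 to 34.0%). The difference of 4.41 points had an interval of -0.68 to 9.26, and the share at genes in neither list was 33%. The gene lists were drawn up with the use of these same ChIP libraries, so they are not independent of the peaks.

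Members near activated genes were more enriched. Their median fold was 18.6 (95% interval 15.5 to 21.5), against 12.9 (10.9 to 16) near repressed genes and 12.9 at genes in neither list. The difference between activated and repressed genes was 5.74 (2.0 to 9.48). Near activated genes, members exceeded the other distal peaks by 6.74 (3.67 to 9.81), and near repressed genes by 2.72 (0.28 to 5.16). These 2 gaps differed by 4.02, with an interval of 0.10 to 7.94 that nearly reaches 0. By gene, 263 of 511 activated genes (51.5%) and 96 of 262 repressed genes (36.6%) had a member. Among genes with any distal peak the shares were 61.6% and 49.5%, beside 47.1% for all genes, and differed by 12.1 points (3.70 to 20.4). Activated genes also had more distal peaks each, 1280 over 427 genes against 443 over 194, and the part of this in the difference was not tested.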

How the data were processed

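SCL ChIP-seq and input reads of 2 libraries each were aligned to mm9 by the authors with Bowtie 1.1.2, freed of duplicates, called with MACS2 2.0.10 (q limit 0.01) and filtered by the irreproducible discovery rate. Replicates were merged. The depth per library is not given in the sources used here. The deposited list holds positions and, as the authors' values, a score (not used), the fold (a ratio of summit fragments to local background, 1 added to both), and the −log10 p-value and −log10 q-value of each peak.

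Pileup and background were solved from fold and p, and 12877 of 12885 peaks matched the deposited p within 0.001 (−log10). The genome (NCBIM37, the same build) and GENCODE vM1 gave sequence and 75543 TSSs of protein-coding, lincRNA and processed-transcript genes. Gene names were matched directly or through RefSeq synonyms (511 of 514 activated and 262 of 264 repressed names of the study). Coordinates count from 1. Intervals (95%) were Wilson for shares, Newcombe for their differences, order-statistic for medians, Price-Bonett for differences of medians and exact Poisson for fragments. The Poisson interval of a fold took the background as fixed. No test over samples could be made from a pooled call, and no p-value was computed. Functions were tested on simulated data. Analyses used Python 3.11.15, numpy 2.4.6, scipy 1.17.1 and pandas 2.3.3.

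Members, gene lists and comparisons were chosen with earlier results of these data known. Named are the 15 members of highest fold, the 10 genes nearest to the most members, list genes with a member and genes in the text of the study. Genes without members that are named, the flanking-base comparison from 51 to 150 bp the side of GATA and the distance in windows 1 kb away were chosen after values were seen. Some items that this rule names are not reported here. The alternatives covered peak thresholds, window, distance, TSS set, spacing, GATA motif, joining of peaks, background and chromosomes.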

Additional observations from a re-analysis of the deposited data

How the results depend on the processing

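Of 99 values recomputed (9 results under 11 alternatives), 82 were stable, and none reversed. A difference counted as stable if it kept its direction and its side of 0, a median or share if it stayed within the interval of the reported value, and the number of members if it was within 1.5 times. The difference in fold between members and other distal peaks (2.64 to 4.17) and the deficit of AGGAA (-8.71 to -6.01 points) held under all 11. The interval for activated minus repressed genes included 0 under all 11 (2.25 to 5.88 points). The number of members was 1874 with a −log10 q of at least 50, 2563 with a fold of at least 10, and 2231 in the window of 25 bp. The median fold of members was 26.6 and 19.8 under those thresholds and 13.7 with the extended GATA motif. The share with the 9 bp spacing was 52.1% in the window of 100 bp and 59.7% with 8 to 9 bp only. The median distance to the summit was 9 bp in the window of 25 bp and 20.5 bp in that of 100 bp, as the windows themselves set. The excess in introns cleared 0 in the window of 25 bp (2.37 points) and with joined peaks (2.01 points). The nearer TSS lost its side of 0 with the q threshold (-2565 bp), the fold threshold (-1817 bp), the window of 100 bp (-286 bp), more than 5 kb from a TSS (-239 bp, an alternative that removes the nearest peaks) and without chromosomes 1 and 8 (-1886 bp). The cause was not tested for the others. No paired analysis was possible because peaks were called on merged libraries and carry no value per library, and for the same reason no replicate could be left out. At the lower quartile of members, 38 fragments (Poisson 95% interval 26.9 to 52.2) limit the precision of single peaks.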

Other observations

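Members were spread over all chromosomes but Y, where none of 5 distal peaks carried the composite. The share of distal peaks that were members ran from 28.4% (95% interval 25.4 to 31.5%) on chromosome 8 to 37.7% (33.5 to 42.0%) on chromosome 12. The median local background of the members was 4.76 fragments on chromosome 8 and 3.30 on chromosome 12, and the part of background in this spread was not tested. The composite lay on the strand of the nearest gene in 48.7% of members (47.1 to 50.3%), and 47.8% (46.2 to 49.3%) lay upstream of the nearest TSS.

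Members had another peak within 12.5 kb slightly less often than other distal peaks did (32.5 and 35.4%, difference -2.96 points, 95% interval -4.76 to -1.14). The 465 members with a further member within this distance had a median fold of 15.2, against 13.1 for the rest (difference 2.14, 0.031 to 4.24).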
